A study of Mus musculus with 8 samples.

Results

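The lateral ganglionic eminence (LGE) of wild-type mouse embryos at embryonic stage E12.5 was described here from 4 RNA libraries, all of the libraries labelled wild type among the 8 of the series. The other 4 libraries are labelled as a knockout of Gsx2 and were not compared with them. The embryos came from matings of Gsx2RA/+ with Gsx2EGFP/+ mice, so the wild-type embryos carried neither of these alleles, and tail tissue was used for genotyping. Eminences were dissected in cold buffered saline and kept in an RNA preservative, and single-end reads were sequenced from stranded libraries of polyadenylated RNA, per the labels' protocols. No source used here states the strain, sex or litter of the embryos or how many of them went into a library, so the spread reported is that between these samples and may be partly technical. The 4 columns carry the numbers 1, 2, 7 and 8, which are in no label and do not identify a replicate. They serve here as names, and values are given in that order. All 12843 listed genes were used, and each library held between 16031458 and 17512880 reads in them. Levels are RPKM, reads scaled to the length of the gene and to the depth of the library, to set genes beside each other. Levels of genes with near-identical copies, such as globin and many ribosomal protein genes, are less certain.

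The LGE is a swelling of the embryonic ventral forebrain wall, the subpallium, that produces striatal projection neurons and olfactory bulb interneurons, which use GABA. Radial glia divide along the ventricle, intermediate progenitors divide deeper in the wall, and postmitotic neurons collect in the mantle. The homeobox factor Gsx2 acts in LGE progenitors, and Dlx factors act as these cells leave the cycle and become GABA neurons. Next to the LGE, across the pallial-subpallial boundary, lies the pallium, whose progenitors use Neurog2 and Eomes and form glutamatergic neurons that express Tbr1.

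All 6 genes taken as markers of the LGE were present at 20 or more RPKM in every library. Dlx1, a homeobox factor of subpallial progenitors and young GABA neurons, was the most abundant at 172, 162, 189 and 168 RPKM, or 173 ± 11.3 (mean ± SD, n = 4), which placed it at rank 106 of 12843. Dlx2, its neighbour on chromosome 2, stood at 120.2, 121, 159 and 149 RPKM. Libraries 1 and 2 were the lower pair for Dlx2 and libraries 7 and 8 the higher pair. Meis2, a TALE homeobox factor of the LGE and its neurons, varied little, at 116, 110.3, 122 and 114 RPKM.

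Gad2, an enzyme that makes GABA, was at 56.01, 63.7, 71.5 and 60.8 RPKM, rank 694. Ebf1, a factor of striatal projection neurons, was at 23.9, 27.5, 35.5 and 29.6 RPKM, rank 2116. Gsx2 itself was at 22.1, 21.4, 26.01 and 24.6 RPKM, rank 2729, the least abundant of the 6. Library 7 held the highest value of each of the 6 genes, and the ranges of Ebf1 and Gsx2 overlapped. The order from Dlx1 through Dlx2, Meis2, Gad2 and Ebf1 to Gsx2 is an order of means, and the ranges of Dlx2 and Meis2 overlapped too.

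Per the GENCODE M21 annotation of GRCm38, Dlx1 spans chr2:71528113-71533981 on the plus strand and Dlx2 spans chr2:71543408-71546754 on the minus strand. Gsx2 spans chr5:75075601-75077893 on the plus strand and Gad2 chr2:22622205-22693874 on the plus strand. Meis2 spans chr2:115863064-116065839 on the minus strand and Ebf1 chr11:44617317-45008091 on the plus strand. The 60 bases before the RefSeq start (build GRCm38.p6) are shown for the 5 of these genes with a single RefSeq window and for 4 pallial genes described further below, because they differ in a TATA-like stretch whose share differed between abundance classes. Letters of TATAAA or TATATA, searched on both strands between 45 and 16 bases before the start, are in capitals. These motifs overlap each other in their first 4 letters.
Dlx1: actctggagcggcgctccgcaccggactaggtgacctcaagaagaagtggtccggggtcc
Dlx2: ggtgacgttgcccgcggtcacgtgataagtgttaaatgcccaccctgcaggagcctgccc
Gsx2: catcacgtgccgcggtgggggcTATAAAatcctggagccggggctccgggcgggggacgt
Gad2: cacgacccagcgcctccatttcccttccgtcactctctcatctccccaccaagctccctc
Meis2: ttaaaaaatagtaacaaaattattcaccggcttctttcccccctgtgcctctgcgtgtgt
Eomes: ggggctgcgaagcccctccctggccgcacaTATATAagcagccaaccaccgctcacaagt
Neurog2: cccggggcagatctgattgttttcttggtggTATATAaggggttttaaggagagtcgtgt
Tbr1: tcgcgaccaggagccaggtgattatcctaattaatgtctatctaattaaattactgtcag
Neurod6: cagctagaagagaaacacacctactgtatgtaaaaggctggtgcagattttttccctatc

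In these windows the match of Gsx2 begins 38 bases before the start, that of Eomes 30 bases and that of Neurog2 29 bases before it, and the windows of Dlx1, Dlx2, Gad2, Meis2, Tbr1 and Neurod6 hold no match. The Dlx1 stretch is chr2:71529385-71529444 on the plus strand, that of Dlx2 chr2:71546755-71546814 on the minus strand, and that of Gad2 chr2:22622267-22622326 on the plus strand. The Gsx2 stretch is chr5:75075541-75075600 on the plus strand, that of Eomes chr9:118478129-118478188 and that of Neurog2 chr3:127633076-127633135, both on the plus strand. The Meis2 stretch is chr2:116064620-116064679 on the minus strand, that of Tbr1 chr2:61804393-61804452 on the plus strand, and that of Neurod6 chr6:55681264-55681323 on the minus strand. A single RefSeq window was matched for 7618 of the listed genes, and 1.76% of those windows held a match. Among genes at 100 or more RPKM it was 14 of 180 (7.78%), among genes from 10 to under 100 RPKM 1.21%, among genes from 1 to under 10 RPKM 1.47%, and among genes under 1 RPKM 3.78%. Over all 22862 windows of the RefSeq table the share was 4.09%. The 14 abundant genes with a match included Vim, Ckb, Hba-x, H3f3b, Rpl4 and Elavl3. For genes of the pallial lists the count was 5 of 36 (13.9%) and for cytosolic ribosomal protein genes 4 of 45 (8.89%). It was 7 of 148 (4.73%) for the transcription factor families. Among genes with a highest-to-lowest ratio of at least 2 between libraries it was 7 of 115 (6.09%). A match is a string of letters and was not tested as a binding site.

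Of the listed genes, 11134 (86.7%) had a mean of at least 1 RPKM, 5845 (45.5%) at least 10 and 301 (2.34%) at least 100, and the median gene stood at 8.60 RPKM. Structural and translation genes filled the top of the table. Actb, cytoplasmic actin, was first at 1152, 1135, 1205 and 1242 RPKM. The tubulins followed, with Tubb5 at 1082 ± 46.9, Tuba1a at 799 ± 64.8, the neuronal Tubb3 at 553 ± 28.5 and Tubb2b at 467 ± 32.9 RPKM. Eef1a1, a translation elongation factor, was at 770.1 ± 48.4 RPKM, and the chaperone Hsp90ab1 at 871 ± 32.6 RPKM. The lists of housekeeping genes held 6 of the 10 most abundant genes and 34 of the 100 most abundant. Together the top 10 made up 3.52% of the summed RPKM and 2.04% of the reads.

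Among the 20 most abundant genes were several that mark embryonic neural tissue. Nnat, an imprinted gene of developing neurons, was at rank 5 with 934, 771, 848 and 796 RPKM, highest in library 1. Vim and Fabp7, an intermediate filament and a lipid-binding protein of radial glia, stood at 488 ± 49.2 and 478 ± 28.9 RPKM. Marcksl1, a membrane-associated actin regulator, was at 445 ± 19.2 RPKM. Hbb-y, an embryonic globin of primitive red cells, was second of all genes at 927, 1027, 1662 and 1069 RPKM, and library 7 stood above the other libraries, whose values lay between 927 and 1069. Others of the 20 were Ywhae, Hnrnpa2b1, Rpl8, Eef2, Atp5b, Hnrnph1 and Hnrnpab, genes of signalling adaptors, RNA processing, translation and respiration.

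**Figure D1:**
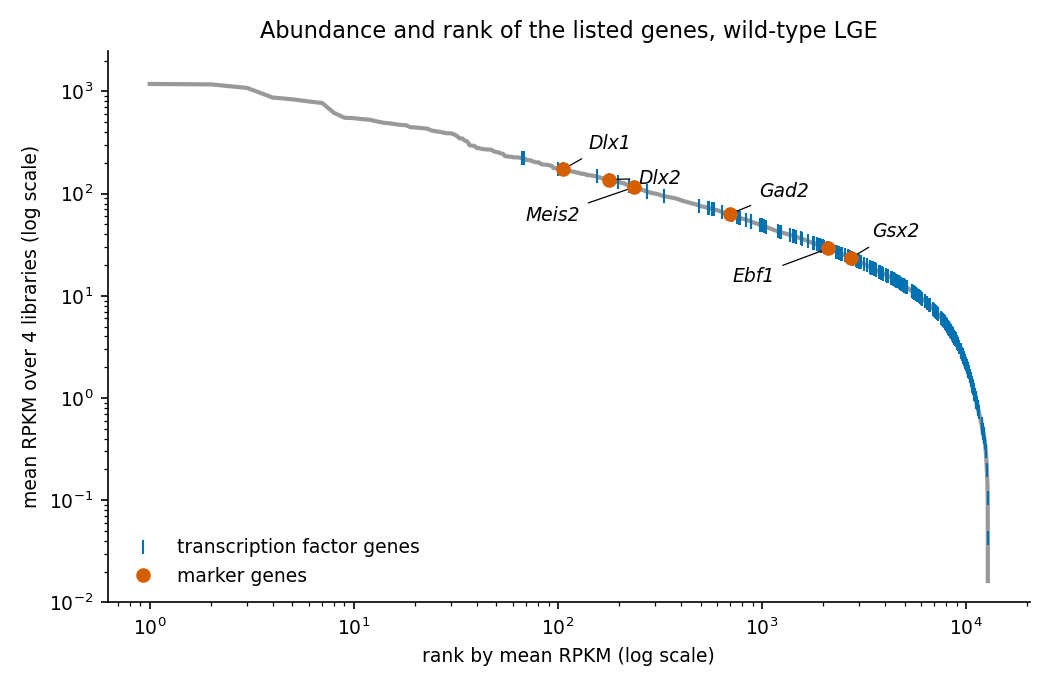
Mean RPKM over the 4 wild-type libraries (y, log scale) against rank (x, log scale), for the listed genes with at least 1 read (grey line). Blue ticks are the transcription factor genes looked at and orange points the 6 markers. The markers run from rank 106 for Dlx1 to rank 2729 for Gsx2.

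The transcription factor families looked at held 279 listed genes. Of these, 246 reached a mean of 1 RPKM, 138 (49.5%, against 45.5% of all listed genes) reached 10, and 11 (3.94%, against 2.34%) reached 100. Among the 1000 most abundant genes, 29 were from these families, 10.4% of the 279 against 7.79% of all genes. The median of the 279 was 9.78 RPKM against 8.60 for all genes.

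SoxC and SoxB factors led the order. Sox11, which acts in cells leaving the cycle, was at 178, 203, 248 and 264 RPKM, and Sox4, its close relative, at 205, 205, 233 and 242 RPKM. Libraries 7 and 8 were above libraries 1 and 2 for both genes, and their ranges overlapped. Sox2, a factor of neural stem cells, was nearly level at 174, 174, 179 and 175 RPKM, below Sox4 in every library. Sox1 and Sox9, also progenitor factors, stood at 55.7 ± 5.99 and 39.6 ± 2.65 RPKM.

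Dlx1 was the fourth of the 279 transcription factor genes looked at, and Dlx2 stood below it in every library. Then came Id4, an inhibitor of bHLH factors, at 130.4 ± 7.98 RPKM and highest in library 1. Pou3f3, a POU factor of neural progenitors, was at 120.0 ± 7.95 RPKM. After Meis2, Tead2 (a partner of Yap) was at 105 ± 5.22 RPKM and Ldb1, a cofactor of LIM factors, at 94.5 ± 3.52 RPKM. The ranges of Dlx2, Id4, Pou3f3 and Meis2 overlapped from each gene to the next, and so did those of Tead2 and Ldb1, whereas Meis2 lay above Tead2 and Ldb1 above Atf4 in every library.

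**Figure D2:**
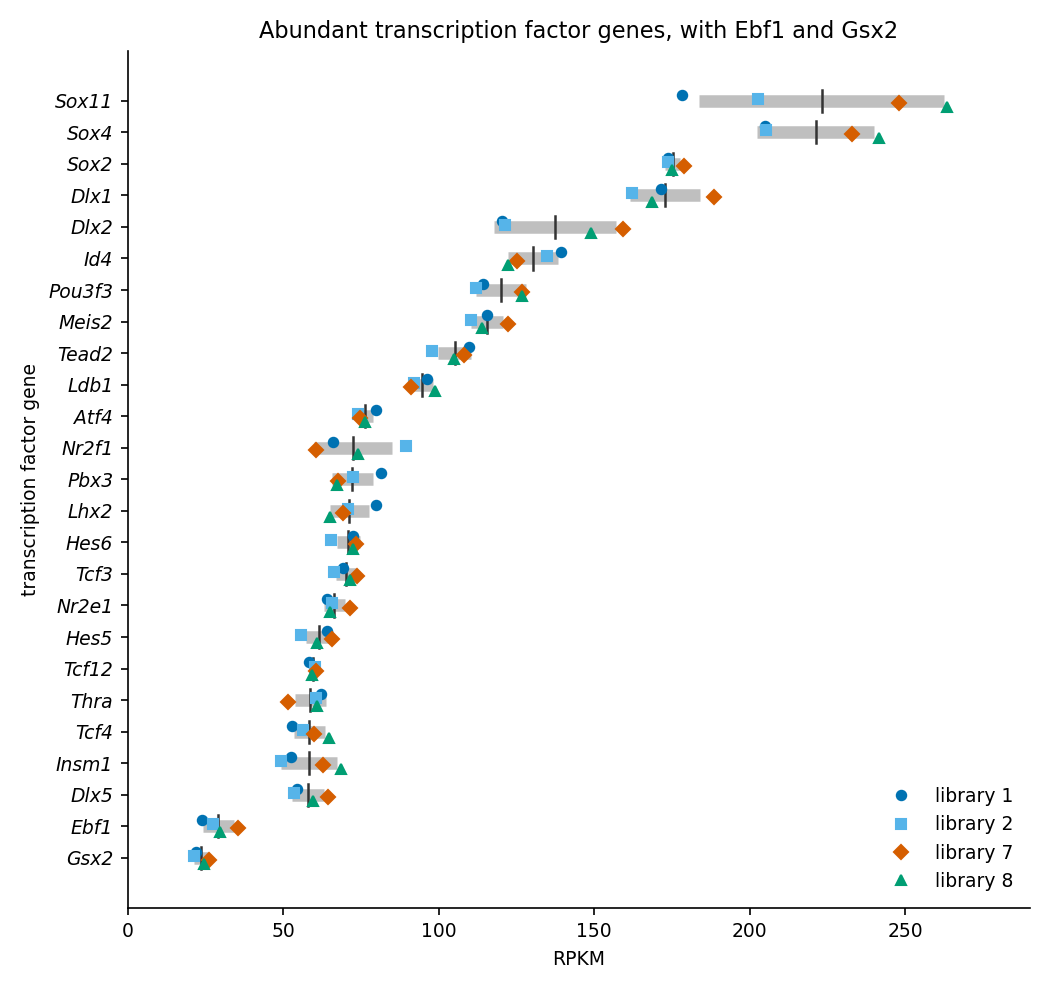
RPKM (x) of 23 of the 25 most abundant of the 279 transcription factor genes, with Ebf1 and Gsx2 added. Points are the 4 wild-type libraries. Black bars are means and grey bars ± 1 SD (n = 4). Sox11 spans 178 to 264 RPKM and Sox2 174 to 179.

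The Dlx family was listed with 4 genes. Dlx5 was at 54.5, 53.5, 64.4 and 59.4 RPKM and Dlx6 at 19.1, 21.8, 25.5 and 22.2 RPKM, and all 4 genes were highest in library 7 (20.7% of all genes with a mean of at least 1 RPKM were). Gsx1, the relative of Gsx2 that is stronger in the medial eminence, was at 1.05, 0.989, 1.06 and 0.868 RPKM. Among TALE factors, Pbx3, a partner of Meis and Hox proteins, stood at 72.2 ± 6.64 RPKM. Meis1 was at 23.9 ± 0.999 RPKM and Meis3 at 30.9 ± 2.17 RPKM.

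Several families held factors of the LGE and its neurons at middle levels. Sp9 and Sp8, zinc finger factors of LGE interneurons and striatopallidal neurons, were at 32.1 ± 4.07 and 15.6 ± 1.03 RPKM. Six3 and Vax1, homeobox factors of the ventral forebrain, were at 26.5 ± 2.6 and 30.1 ± 3.04 RPKM. Lhx2, a LIM factor of telencephalic progenitors, was at 79.8, 70.9, 69.3 and 64.9 RPKM, and Isl1, a LIM factor of striatonigral neurons, at 38.4, 39.9, 41.8 and 31.6 RPKM. Lhx2 was highest in library 1 and Isl1 lowest in library 8. Bcl11b (Ctip2), a zinc finger factor of striatal neurons, was at 38.8, 42.5, 56.8 and 57.6 RPKM, with libraries 7 and 8 above libraries 1 and 2. Bcl11a was at 42.2 ± 1.91 RPKM.

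Nuclear receptors were led by Nr2f1 (COUP-TFI), a patterning factor of the telencephalon, at 65.9, 89.3, 60.7 and 74.1 RPKM, highest in library 2. Nr2e1 (Tlx), a factor of neural stem cells, was at 66.5 ± 3.34 RPKM, and the thyroid hormone receptor Thra at 62.2, 60.4, 51.4 and 60.8 RPKM, lowest in library 7. Among effectors of Notch, Hes5 was at 61.6 ± 4.38 RPKM, Hes1 at 12.6 ± 0.714 RPKM and Hey1 at 19.8 ± 0.469 RPKM. Hes6, which counters Hes1, was at 70.9 ± 3.67 RPKM. Insm1, a zinc finger factor of intermediate progenitors, was at 52.4, 49.2, 62.7 and 68.5 RPKM, with libraries 7 and 8 again above the other pair. Nfib, Nfia and Nfix, factors of late progenitors and glia, were lower at 21.3, 14.8 and 5.52 RPKM.

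Progenitor genes were abundant. Of 24 radial glia genes, 20 reached 10 RPKM, against 45.5% of all genes, and 6 reached 100, against 2.34%. Nes (nestin) was at 130.4, 155, 162 and 153 RPKM, lowest in library 1, and Msi1, an RNA-binding protein of neural stem cells, at 132 ± 10.3 RPKM. Ptprz1, a receptor phosphatase, was at 96.6 ± 7 RPKM, and the cadherin Cdh2 at 68.3 ± 3.09 RPKM. The list as a whole was even across libraries, with summed RPKM of 2433, 2374, 2307 and 2363.

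All 32 genes of G2 and mitosis reached 10 RPKM, as did 34 of 37 genes of S phase and replication, against 45.5% of all genes. Top2a, a topoisomerase of dividing cells, was at 204, 195, 214 and 195 RPKM, Rrm2, a subunit of ribonucleotide reductase, at 139 ± 7.27, Pcna at 83.2 ± 5.77 and Mki67 at 87.3 ± 2.81 RPKM. S phase genes were highest in library 7 in 21 of 37, against 20.7% of all genes, and lowest there in 0 of 37, against 30.5% of all genes. After the median deviation of genes of similar length was taken off each library, 32 of 37 were highest in library 7, against 28.2% of all genes. The median of the list in library 7 was then only 0.08 (log2) above the 4-library mean. Of the cyclins of G1, Ccnd2 was at 209.7, 235, 296 and 288 RPKM with libraries 7 and 8 above the other pair, and Ccnd1 at 112, 101, 99.1 and 88.8 RPKM, highest in library 1. Cdkn1b, an inhibitor that stops the cycle, was at 61.6 ± 2.37 RPKM and Cdkn1c at 26.3, 21.4, 15.2 and 20.3 RPKM, lowest in library 7.

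Subpallial progenitor genes, a list that shares Dlx1, Dlx2 and Gsx2 with the families above, were highest in library 7 in 9 of 14, against 20.7% of all genes, and lowest there in 0, against 30.5%. Libraries 1 and 2 held the lower sums and libraries 7 and 8 the higher, at 749, 711, 865 and 817 summed RPKM. Gadd45g, a gene of cells leaving the cycle, was at 38.01, 34.1, 44.03 and 48.1 RPKM. Olig2, a bHLH factor of subpallial progenitors, was at 22.3 ± 1.72 RPKM, while Olig1 was at 1.81 ± 0.264 RPKM.

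Genes that all young neurons use reached high levels: 34 of 37 were at 10 RPKM or more, against 45.5% of all genes, and 12 at 100 or more, against 2.34%. After Nnat and Tubb3 came Basp1, a growth cone protein, at 346 ± 21.5 RPKM, Dpysl3 at 213 ± 8.21 RPKM and Nsg2, a vesicle protein, at 225, 204, 165 and 213 RPKM. Stmn2, a regulator of microtubules in growing axons, was at 180.4, 155, 132 and 152 RPKM, and Map1b at 191 ± 10.1 RPKM. Nsg2 and Stmn2 were both highest in library 1 and lowest in library 7. Of the list, 24 of 37 genes were lowest in library 7, where 30.5% of all genes were.

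Genes listed for GABA synthesis and transport were present at middle levels. The list of 9 also holds the amino acid carrier genes Slc38a1, Slc38a2 and Slc38a3, so it is wider than the GABA phenotype. A highest-to-lowest ratio of 2 was reached by 0 of the 9, against 2.69% of all genes, which does not set so short a list apart. Gad1, the other GABA-making enzyme, was at 29.96, 30.4, 30.4 and 27.1 RPKM, below Gad2 in every library. Slc32a1, which loads GABA into vesicles, was at 18.2, 18.96, 22.6 and 22.9 RPKM. The list was highest in library 7 in 6 of 9 genes, against 20.7% of all genes, and lowest there in 0, against 30.5%.

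Of 23 listed genes of striatal projection neurons, 21 reached 1 RPKM (86.7% of all genes did), 9 reached 10 (45.5%) and 0 reached 100 (2.34%). Their leaders were transcription factor genes: after Bcl11b and Isl1 came Foxp4 at 30.6 ± 1.44 RPKM, Ebf1, Zfp503 (Nolz1) at 23.03, 24.4, 29.4 and 28.3 RPKM, and Sox8 at 17, 15.5, 23.2 and 20.8 RPKM. Foxp1 and Foxp2, forkhead factors of the striatum, were at 9.404, 9.49, 13.3 and 12.3 and 16.1, 15.9, 15.6 and 15.4 RPKM. Foxp1 was higher in libraries 7 and 8, while Foxp2 hardly moved. The neuropeptide gene Tac1 was at 11.01, 6.05, 10.9 and 7.68 RPKM. Of the list, 12 of 21 genes were highest in library 7, against 20.7% of all genes.

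Genes listed for neighbouring eminences had a median of 5.71 RPKM for the medial and 7.38 RPKM for the caudal list. The median was 5.49 RPKM for the striatal list and 8.60 RPKM for all listed genes. Of the caudal list, Nr2f1, Nr2f2, Reln and Calb2 are also on the pallial lists, and Sp8 is also a factor of the LGE. These medians therefore do not measure cells of those eminences. Nkx2-1, the homeobox factor that defines the medial ganglionic eminence, was at 0.997, 1.16, 0.545 and 0.592 RPKM, from 62, 73, 36 and 36 reads. Lhx6, a factor of neurons leaving that eminence, was at 5.71 ± 0.629 RPKM. The peptide gene Sst was at 29.7, 22.7, 25.2 and 30.5 RPKM and Npy at 5.33, 5.02, 5.32 and 7.52 RPKM. Of genes listed for the caudal eminence, Nr2f2 (COUP-TFII) was at 4.303, 9.59, 4.02 and 4.68 RPKM, where library 2 stood above the rest, and Prox1 at 3.72, 5.42, 4.58 and 4.11 RPKM. Prox1 was also highest in library 2.

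Among signalling genes, Ctnnb1, beta-catenin of the Wnt pathway and of cell junctions, was the only one looked at that reached 100 RPKM, at 405, 387, 384 and 381. Sfrp1, a secreted Wnt modulator, was at 92.1 ± 4.17 RPKM and Fzd8, a Wnt receptor, at 46.01, 43.98, 42.3 and 39.4 RPKM. The ligand Wnt7a was at 20.6 ± 1.12 RPKM, and Wnt7b at 9.41, 10.04, 4.19 and 10.4 RPKM, low in library 7 alone.

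All 21 Notch pathway genes reached 1 RPKM, against 86.7% of all genes, and 12 reached 10, against 45.5%. The receptor Notch1 was at 46.9, 51.9, 56.8 and 51.6 RPKM, Notch3 at 19.9 ± 2.03 and Notch2 at 10.2 ± 1.14 RPKM. The ligands Dll1 and Dll3 were at 30.2 ± 0.856 and 22.03 ± 2.23 RPKM, and Mfng, a glycosyltransferase that modifies Notch, at 40.8 ± 2.02 RPKM. A ratio of 2 between libraries was reached by 0 of the 21, against 2.69% of all genes, which does not set so short a list apart.

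Of 15 Hedgehog pathway genes, 9 reached 10 RPKM, against 45.5% of all genes. The receptor subunit Ptch1 was at 12.7, 14.96, 14.1 and 11.3 RPKM, Smo, the signal transducer, at 23.9 ± 1.41 RPKM, and Gli3, the main repressor of the pathway, at 21.8, 24.8, 28.7 and 28.1 RPKM. The target gene Gli1 was at 2.89, 2.47, 2.096 and 1.603 RPKM. FGF receptors were close together, with Fgfr2 at 29.2 ± 1.58, Fgfr1 at 23.2 ± 0.825 and Fgfr3 at 20.9 ± 1.57 RPKM. No FGF ligand reached a mean of 10 RPKM. Fgf15, the highest of them, was at 18.3, 9.57, 6.19 and 4.82 RPKM, and library 1 stood above the rest.

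Of the retinoid genes, the binding protein gene Crabp2 was at 34.9, 27.7, 25.4 and 19.98 RPKM. Aldh1a3, which makes retinoic acid in the lateral forebrain, was at 7.02, 4.95, 7.09 and 5.28 RPKM, higher in libraries 1 and 7 than in libraries 2 and 8. Crabp1 was at 2.39, 4.26, 6.095 and 6.74 RPKM, lowest in library 1. The nuclear receptors Rxrb, Rara and Rarb were at 21.7, 6.96 and 2.26 RPKM.

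Among guidance genes, Efnb2 and Epha4, an ephrin and an Eph receptor, were at 84.3 ± 2.15 and 63.1 ± 5.53 RPKM. The ligand gene Ntn1 was at 34.02, 30.7, 40.2 and 32.9 RPKM and its receptor gene Dcc at 17.8, 15.8, 10.6 and 14.3 RPKM. Ntn1 was highest and Dcc lowest in library 7. Of 25 semaphorin, plexin and neuropilin genes, 15 were lowest in library 7, against 30.5% of all genes, and 0 highest there, against 20.7%, with Plxna2 at 48.1 ± 2.398 RPKM as the most abundant. The growth factor genes Mdk and Ptn, midkine and pleiotrophin, stood at 97.5 ± 10.3 and 75.96 ± 3.86 RPKM. TGF-beta family receptors were led by Tgfbr1 at 32.2 ± 1.23 and Bmpr1a at 27.2 ± 1.34 RPKM.

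Markers of cells other than neural cells were low, red cell genes apart. Of the 15 listed microglial genes, 9 had a mean of at least 1 RPKM, against 86.7% of all genes. Cx3cr1 and Csf1r, which define microglia, were at 1.81 and 1.72 RPKM. The list summed to 28.6, 25.2, 30.7 and 29.3 RPKM. Endothelial genes summed to 117, 108, 116 and 120.0 RPKM, with the adhesion molecule genes Cdh5 and Pecam1 at 5.93 and 6.35 RPKM. Ttr, the main product of choroid plexus, was at 0.485, 0.0736, 0.105 and 0.267 RPKM. Red cell genes summed to 1418, 1551, 2454 and 1652 RPKM, highest in library 7, and 9 of the 11 were highest there, against 20.7% of all genes. Identical reads were counted for Hba-a1 and Hba-a2, for Hbb-b1 and Hbb-bs, and for Hbb-b2 and Hbb-bt, so these copies cannot be told apart. Each of these pairs had most reads in library 7 and entered the sums and the count of 9 as separate genes. Both are therefore inflated by shared reads.

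The 4 libraries were close for most genes. Over the 11134 genes with a mean of at least 1 RPKM, the median coefficient of variation (CV) was 6.76% (10th to 90th percentile 3.01% to 16.6%). Read counting alone would give a median of 3.72%, and the median CV beyond counting was 5.11%. In 1845 genes (16.6%) the spread was no larger than that from counting. The median CV was 9.10% from 1 to 10 RPKM, 5.41% from 10 to 100 RPKM and 5.22% above 100 RPKM. The genes with the smallest CV among those at 5 RPKM or more included Ilf2 at 141, 141, 139.9 and 139.5 RPKM, Nfe2l1 at 26.7, 26.8, 26.7 and 26.5 RPKM and Chuk at 19.7, 19.6, 19.6 and 19.5 RPKM.

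The highest and lowest library differed by a median ratio of 1.16, computed on RPKM plus 0.1. A ratio of 2 or more was reached by 300 of 11134 genes (2.69%). Annotated small RNAs, of which 132 had a mean of at least 1 RPKM, made up 85 of the 300, and 83 genes were under 300 bp. At 100 RPKM or more, 0 of 301 genes reached a ratio of 2. Of the 300 genes, 145 (48.3%, against 30.5% of all genes) were lowest in library 7 and 151 (50.3%, against 46.8%) were highest in library 1.

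Part of the spread followed gene length. Library 1 was highest in 46.8% of all genes, in 58.8% of the shortest decile of genes and in 11.8% of the longest decile. Its median deviation from a gene's mean ran from 0.12 (log2) in the shortest decile to -0.04 in the longest, while that of library 2 ran from -0.10 to 0.04. Ribosomal protein genes, which are short, were highest in library 1 in 45 of 65, and in 21 of 65 (against 25.8% of all genes) once the deviation of genes of similar length was taken off. The list summed to 6575, 5460.0, 5987 and 5909 RPKM.

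**Figure D3:**
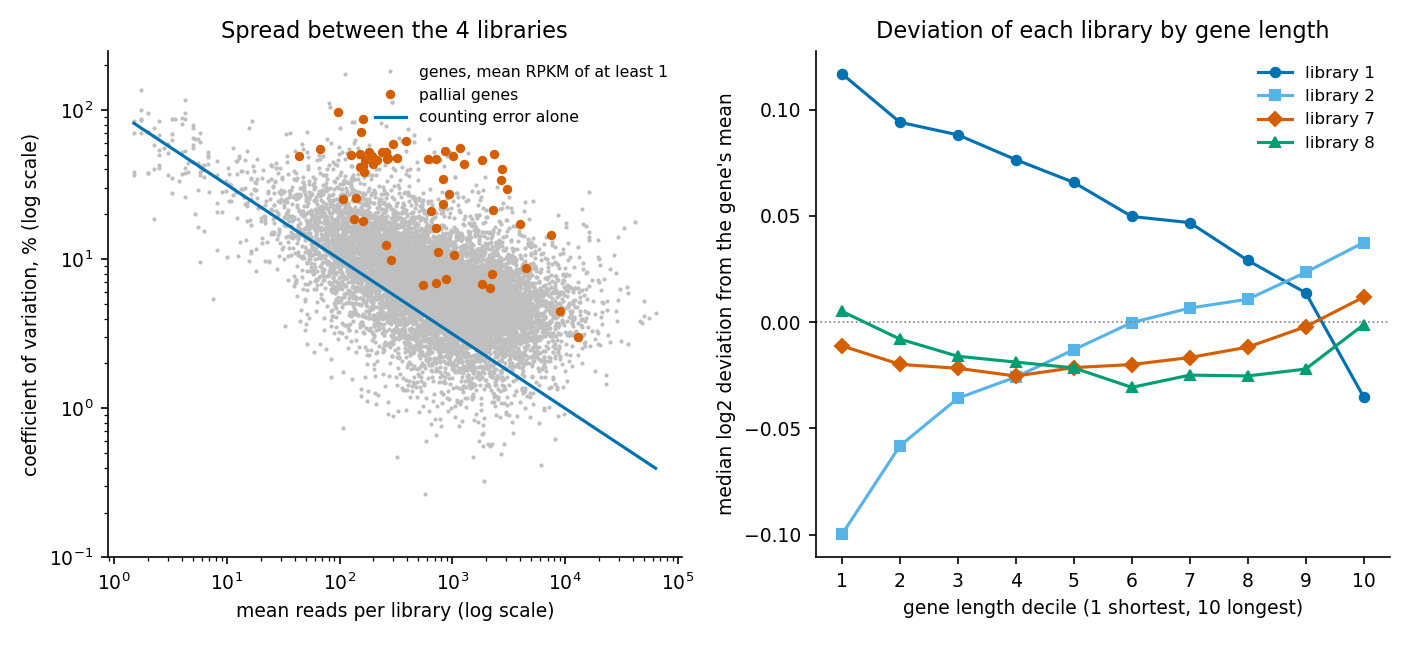
Left, coefficient of variation over the 4 libraries (y, %, log scale) against mean reads per library (x, log scale) for genes with a mean of at least 1 RPKM (grey), with pallial genes in orange and the spread from counting alone as a blue line. Right, median log2 deviation of each library from a gene's 4-library mean (y) by decile of gene length (x), where library 1 runs from 0.12 to -0.04 and library 2 from -0.10 to 0.04.

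Pallial genes varied far more between the libraries than genes as a whole. Of 67 listed genes of the pallial lists (pallial progenitors, pallial glutamatergic neurons, and Cajal-Retzius cells with the cortical hem), 58 had a mean of at least 1 RPKM, and 35 of those 58 (60.3%, against 2.69% of all genes) had a highest-to-lowest ratio of 2 or more. Over all 58 genes library 7 was lowest in 41, against 30.5% of all genes, and stood at a median of 0.556 of the mean of the other 3 libraries, against 0.985 for all genes. Among the 35 genes, which were picked for a large ratio, library 7 was lowest in 31. Some list members, such as Lhx2 and Pax6, are also used by LGE cells, and the lists were drawn up with values of these libraries known.

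Several transcription factor genes of the glutamatergic sequence were low in library 7, and others on the same list were not. Of 30 genes of pallial glutamatergic neurons, 22 were lowest there, against 30.5% of all genes. Neurog2, the proneural bHLH factor of pallial progenitors, was at 20.7, 19.7, 4.45 and 26.6 RPKM. Eomes (Tbr2), a T-box factor of pallial intermediate progenitors, was at 19.7, 16.1, 2.64 and 18.6 RPKM. Libraries 1, 2 and 8 lay between 16.1 and 26.6 for these genes and library 7 under 5. Tbr1, a T-box factor of early cortical neurons, was at 41.6, 36.9, 13.05 and 34 RPKM. Neurod6 and Neurod2, bHLH factors of the same neurons, were at 52.8, 41.5, 12.6 and 47 and at 22.98, 19.7, 6.92 and 24.6 RPKM. For all of these genes library 7 lay below the other 3 libraries. By contrast Cux1 and Rorb, transcription factors of cortical neurons, were highest in library 7, at 18.4, 20.3, 25.5 and 23.2 RPKM and at 2.77, 3.59, 4.87 and 4.37 RPKM. For Sox5, Lmo3, Cux2 and Tle4 library 7 stood at 0.957, 0.996, 0.953 and 0.982 of the mean of the other 3. For the 5 genes low in library 7, the highest-to-lowest ratio among the other 3 libraries ran from 1.22 to 1.35.

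Genes of glutamate release and of cortical axons did the same. Slc17a6 (VGLUT2), which loads glutamate into vesicles, was at 10.1, 9.46, 2.38 and 8.08 RPKM, and Slc17a7 (VGLUT1) at 2.91, 3.38, 0.671 and 2.35 RPKM. Nrn1, a secreted growth factor of neurites, was at 7.92, 7.14, 1.903 and 7.07 RPKM. Rnd2, a small GTPase of migrating cortical neurons, was the most abundant gene with a ratio of 2 or more in these lists, at 74.2, 64.1, 36.9 and 70.2 RPKM. The adhesion molecule gene Cntn2 was at 14.5, 14.4, 9.16 and 19.7 RPKM and the semaphorin receptor gene Plxna4 at 9.16, 9.702, 5.999 and 14.1 RPKM, where library 8 was also higher than libraries 1 and 2.

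Pallial progenitor factors at low levels followed, with Emx1, a homeobox factor of the dorsal pallium, at 7.07, 5.55, 1.35 and 5.6 RPKM and Fezf2 at 4.07, 3.39, 1.19 and 3.397 RPKM. Tfap2c, an AP-2 factor of cortical progenitors, was at 5.76, 5.67, 1.36 and 6.23 RPKM, and Neurog1 at 1.67, 2.51, 0.489 and 2.74 RPKM. Other genes on the list of pallial progenitors moved less. Pax6, which is strongest in the pallium and present in the dorsal LGE, was at 26.1, 24.2, 15.5 and 21.3 RPKM, lowest in library 7 with a ratio of 1.68. Emx2 was at 15.5, 11.7, 10.8 and 12.3 RPKM, and Lhx2, Sfrp1, Sfrp2 and Gas1 had ratios of 1.23, 1.103, 1.16 and 1.31.

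**Figure D4:**
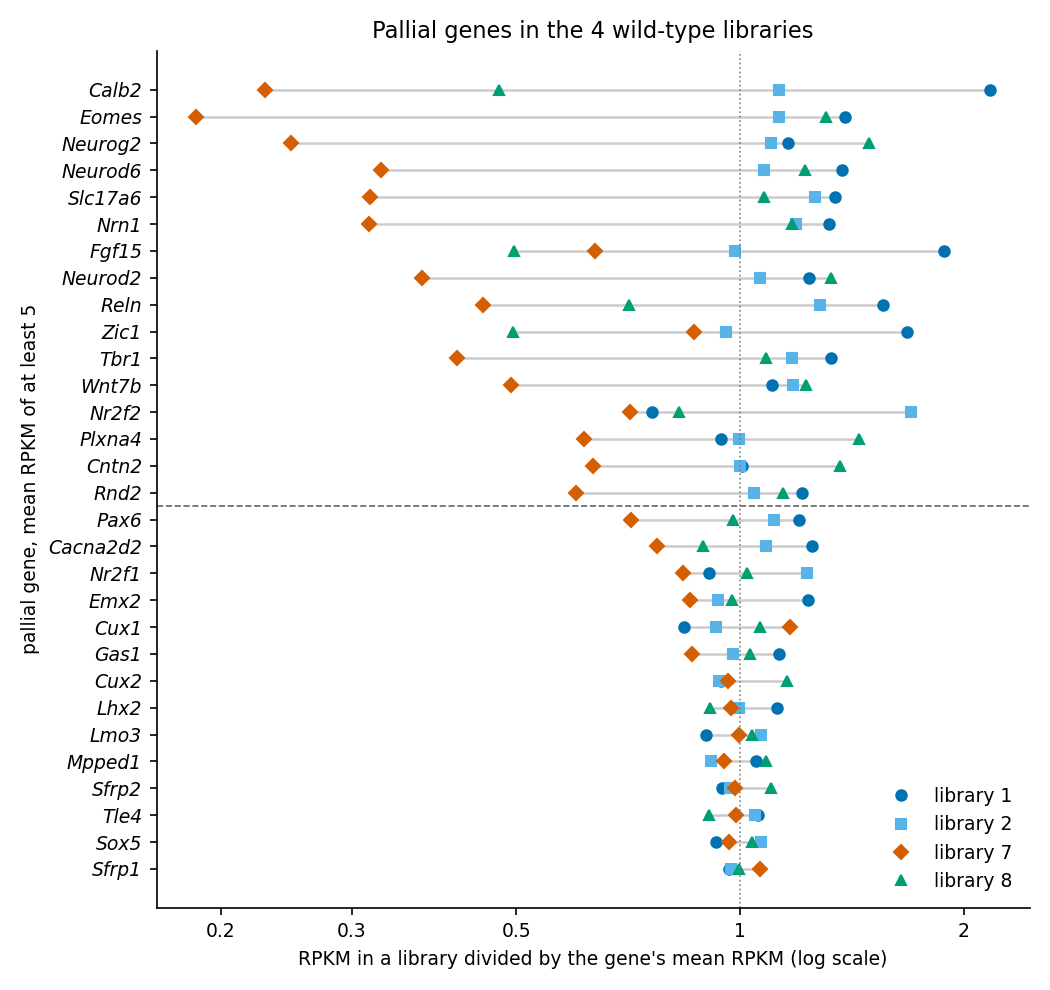
RPKM in each wild-type library divided by the gene's 4-library mean (x, log scale) for 30 of the 31 pallial genes with a mean of at least 5 RPKM (y, ordered by highest-to-lowest ratio). The 16 genes above the dashed line have a ratio of 2 or more, and library 7 (diamonds) is the lowest point in 14 of them.

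With library 7 left out, the count fell to 10 of 59 pallial genes (16.9%, against 1.51% of all genes). Of the 35 genes, 9 kept a ratio of 2 or more among libraries 1, 2 and 8, namely Bhlhe22, Calb2, Fgf15, Hopx, Nr2f2, Reln, Trp73, Zic1 and Zic4. Several of them are known from Cajal-Retzius cells and the hem. Calb2 (calretinin) was at 11.05, 5.74, 1.17 and 2.41 RPKM, Reln (reelin) at 14.2, 11.7, 4.11 and 6.46 RPKM and Trp73 at 2.35, 1.805, 0.282 and 0.805 RPKM. Zic1 was at 22.98, 13.1, 11.9 and 6.77 RPKM, and its lowest value lay in library 8, as did that of Fgf15. Library 1 held the highest value of all 9 genes except Nr2f2, which was highest in library 2. The list for Cajal-Retzius cells and hem summed to 73.5, 55.7, 29.9 and 31.7 RPKM, with libraries 1 and 2 above libraries 7 and 8. Zic1, Zic2 and Zic4 are also on the list of meninges and mesenchyme, which summed to 83.4, 72.4, 68.8 and 62.1 RPKM. The part of meningeal RNA in these differences was not tested.

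In library 7 the lists moved in opposite directions, whereas from library 2 to library 8 the glutamatergic, Dlx and striatal sums all rose. Glutamatergic neuron genes summed to 438, 399.8, 232 and 432 RPKM and pallial progenitor genes to 552, 554, 454 and 539 RPKM, both lowest in library 7. Dlx genes summed to 365, 359, 438 and 399 RPKM and genes of striatal projection neurons to 262, 267, 324 and 299 RPKM, both highest in library 7. Genes of the medial eminence summed to 119, 119.5, 119 and 127 RPKM, with library 8 slightly above the rest. With the deviation of genes of similar length taken off, the median of the list in library 7 was -1.12 (log2) for glutamatergic neurons and -0.44 for pallial progenitors, against 0.20 for Dlx genes, 0.17 for striatal genes and 0.15 for subpallial progenitors. Library 7 also held the highest red cell sum, with a list median of 0.54, in a list where globin copies with identical reads count as separate genes. The part of red cell RNA in the other differences was not tested. In bulk RNA, fewer cells of a type and less RNA per cell cannot be told apart.

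**Figure D5:**
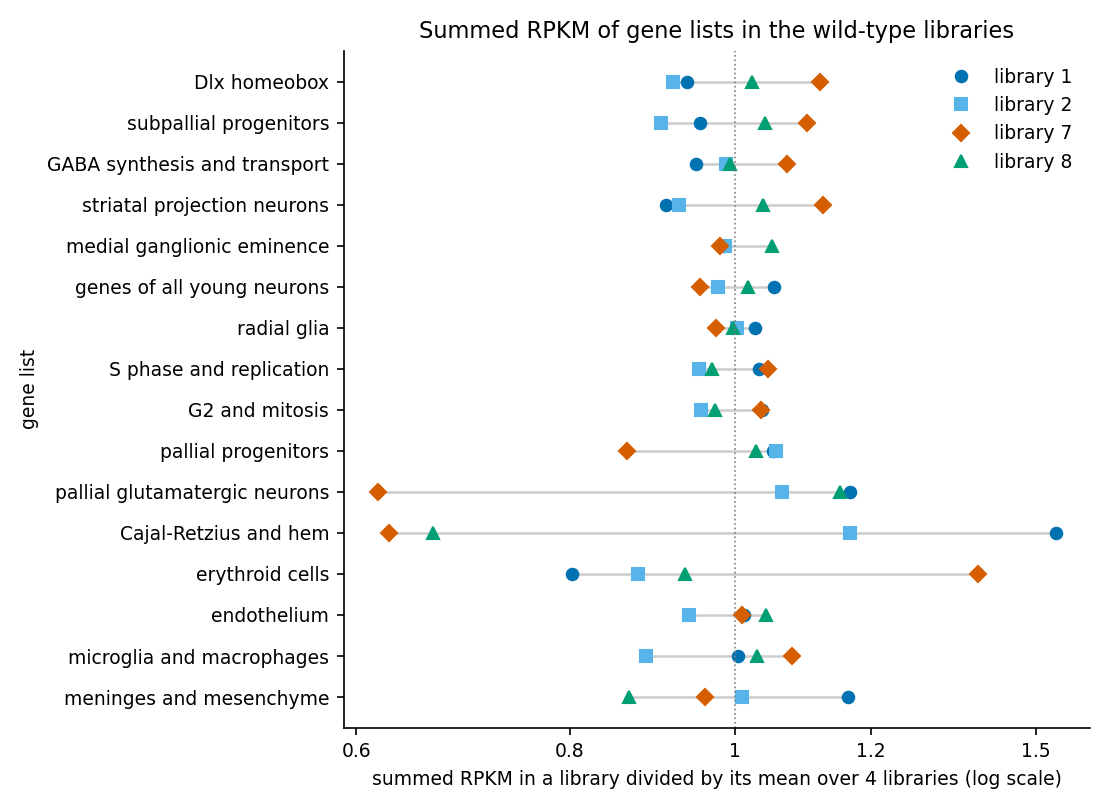
Summed RPKM of 16 gene lists in each wild-type library, divided by the 4-library mean of the list (x, log scale). Library 7 (diamonds) is lowest for the 3 pallial lists, young neurons, radial glia and, narrowly, the medial eminence. It is highest for Dlx genes, subpallial progenitors, GABA synthesis and transport, striatal genes, S phase, microglia and red cell genes.

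Other genes with a large ratio lay outside the pallial lists. Prdm8, a zinc finger factor, was at 11.4, 8.94, 3.89 and 13.9 RPKM, with library 7 lowest. Nrp2, a semaphorin receptor gene, was at 8.302, 6.86, 2.53 and 3.396 RPKM, and Kit, a receptor tyrosine kinase gene, at 8.65, 8.12, 4.19 and 7.36 RPKM, both lowest in library 7. Robo3, a Slit receptor gene, was at 6.796, 6.55, 2.18 and 1.98 RPKM, with libraries 1 and 2 above libraries 7 and 8. Th, the dopamine-making enzyme, was at 5.42, 4.09, 3.54 and 2.41 RPKM, and Scgn, a calcium-binding protein of olfactory bulb interneurons, at 3.33, 2.32, 1.88 and 0.825 RPKM. Both were highest in library 1 and lowest in library 8.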

How the data were processed

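RNA of 4 wild-type LGE samples at E12.5 was analysed. The authors deposited RPKM per gene and library, per the file headers, made with STAR, featureCounts and edgeR on mm10, per the submitters' processing notes. No source used here gives the versions, the annotation or whether counting used strand, so overlapping antisense genes cannot be told apart. The deposited table also gives the authors' average log2 level, a scaled count.

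Every deposited RPKM equals a whole number of reads times a step fixed for that gene and library. Reads were therefore recovered for 100% of 12843 genes (tolerance 1e-06 of a read, widened in proportion to the read number). All 8 RPKM columns served for this, and the deposited log2 average set the scale of 44 genes whose reads share a factor. Beyond that, the 4 knockout columns were not used. There were 0 other columns of samples.

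Ranks and means used RPKM as deposited. Ratios used RPKM plus 0.1 and genes with a mean of at least 1 RPKM. The counting error is the Poisson error of the recovered reads and covers counting only. The recovery and the CV were tested on simulated data. Python 3.11.15, numpy 2.4.6, pandas 2.3.3 and matplotlib 3.10.9 were used. Genes were annotated from GENCODE M21 (12593 of 12843 matched by symbol), and sequences are from RefSeq (GRCm38.p6).

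The 4 libraries form 1 group, so no comparison between groups and no p-value was made. The members, the 69 gene lists and the thresholds were chosen with earlier results of these data known. The named genes are the 6 markers, the 20 most abundant, the 15 with the largest ratio and the 10 with the smallest CV at 5 RPKM or more, up to 3 top and 2 most variable genes per list, and pallial genes at 5 RPKM or more. A few genes that the rule names are not reported here. Others are named as examples of their list and were chosen after their values were seen. Alternatives were other scalings, pseudocounts, filters, thresholds, gene length and leaving out each library.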

Additional observations from a re-analysis of the deposited data

Results flagged for a closer look

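In 268 sets of 4 values, 199 genes named in the text and 69 list sums, the gap between the most extreme library and its nearest neighbour was divided by the whole range. This share exceeded Dixon's 95% critical value for 4 samples, which chance exceeds in about 1 of 20 sets, in 18 sets (14 genes and 4 list sums). The genes are not independent of each other, and some list sums contain flagged genes. The 18 of 268 sets lie not far above 1 in 20. That rate does not apply to genes named for a large ratio or after their values were seen, as many were. Below, standing apart describes the 4 values and was not tested against chance.

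Library 7 stood apart in 5 genes. It was low for Nrn1 (1.903 RPKM), Tfap2c (1.36 RPKM), Wnt7b (4.19 RPKM) and Thra (51.4 RPKM), of which the first 3 are in the pallial lists. It was high for Grb10 (133 RPKM). The summed RPKM of pallial progenitors in library 7, at 454, also stood apart from the other 3 sums, which lay between 539 and 554.

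Library 8 stood apart in 5 genes, low for Dll1 (28.97 RPKM) and Gad1 (27.1 RPKM) and high for Cux2 (10.3 RPKM), Nfib (24.3 RPKM) and Npy (7.52 RPKM). The summed RPKM of medial eminence genes was 127 there, a list that includes Npy. Library 2 stood apart in 4 genes, high for Nr2f2 (9.59 RPKM) and Rpl35a (30.5 RPKM) and low for Hes6 (65.4 RPKM) and Hnrnpab (427 RPKM). Library 1 was high in the summed RPKM of the Hes, Hey and Id genes, at 343, and of glycolysis genes, at 810.2. For Dll1, Hes6 and Hnrnpab the whole range was small, with ratios of 1.06, 1.12 and 1.06 between the highest and the lowest library.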

How the results depend on the processing

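The share of genes with a highest-to-lowest ratio of at least 2 (2.69% as reported) became 1.43% with a pseudocount of 1, 6.58% with no filter on low values, 0.75% at a mean of at least 5 RPKM, 7.89% at a ratio of 1.5 and 1.12% at a ratio of 3. It was 1.30% among genes with at least 100 reads on average, an alternative chosen after seeing the data. Leaving out each library in turn gave 1.51% to 2.34%, lowest without library 7. The pallial count (35) became 16 at a mean of at least 5 RPKM, by construction from fewer genes, and ranged from 10 to 34 when each library was left out, lowest without library 7. Of 91 alternatives over 12 results, the other 82 stayed within 1.5 times the reported count or share or within 1 SD of the reported level, among them both other scalings and the levels of all 6 markers. No paired analysis was possible because only wild-type libraries entered and the columns carry no replicate numbers from the labels. Below about 10 RPKM counting error limits the spread that can be read: the median from counting alone was 5.97% from 1 to 10 RPKM.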

Other observations

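Imprinted genes were abundant in the eminence, with 19 of 29 at 10 RPKM or more, against 45.5% of all genes. After Nnat came Mest, a hydrolase-like gene of growing tissue, at 207, 193, 188 and 179 RPKM, Grb10, an adaptor of growth factor receptors, at 112, 108, 133 and 109 RPKM and Ndn, a gene of postmitotic neurons, at 140.0, 119.9, 98.4 and 118 RPKM. Grb10 was highest in library 7 and Ndn lowest there. Genes that respond within minutes to handling had similar summed levels across libraries, which rest mainly on their more abundant members. Of 19 listed immediate early genes, 10 reached a mean of 1 RPKM, against 86.7% of all genes. An effect of handling was not tested. The immediate early genes summed to between 120.1 and 128 RPKM, with Jun at 32.99 ± 1.396 and Dusp1 at 16.01 ± 1.06 RPKM. Heat shock genes summed to 269, 262, 275 and 255 RPKM.

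Ribosomal protein genes held 4 of the 5 largest ratios at a mean of 5 RPKM or more, and the gene model Gm15772, which holds the same reads as Rpl26, held the other. At lower means small RNAs also had large ratios. Of 65 ribosomal protein genes at a mean of 1 RPKM or more, 7 reached a ratio of 2, against 2.69% of all genes. Of the 65, 5 had a ratio of 10 or more. Rpl26 was at 0.587, 47.2, 46.8 and 0.0858 RPKM, from 7, 571, 593 and 1 reads. Rps3a1 was at 31.7, 0.572, 15.8 and 29.3 RPKM, Rpl35a at 1.53, 30.5, 1.01 and 0.702 RPKM, Rps2 at 22.03, 9.94, 0.515 and 10.5 RPKM and Rpl30 at 37.6, 2.44, 32.6 and 29.3 RPKM. The library that stood apart differed from gene to gene. Many ribosomal protein genes have near-identical copies elsewhere in the genome, so these levels are uncertain, and whether reads were shared with copies was not tested. Rmrp, the RNA of an RNA-processing enzyme, was at 42.4, 23.03, 11.1 and 13.7 RPKM, and Aldh1l1, a folate enzyme of glia, at 3.24, 4.501, 4.96 and 10.1 RPKM.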
